A study of Mus musculus with 18 samples.

Results

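The genes of sterol and fatty acid synthesis were followed through bulk RNA-seq of O9-1 cells, a line of neural crest (NC) cells from mouse embryos. The 32 genes were taken by symbol from a list of the pathway, out of 55335 gene identifiers in the counts, by a rule that used no measured value. They were split into 21 sterol genes and 11 fatty acid genes. The study asked how FGF signaling acts through Yap and Taz (the product of Wwtr1) while NC cells become osteoblasts. Each of its 18 RNA-seq libraries came from cells with the genotype Wildtype that had been placed in osteoblast differentiation medium.

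There were 6 groups of 3 libraries. Ctrl+vehicle cells had received a control siRNA (siCtrl) and no FGF2. Ctrl+FGF2 cells had received siCtrl and FGF2, a growth factor that activates FGF receptors. Y/T dKD+FGF2 cells had received siRNA against Yap and Taz together (siY/T) and FGF2. The same 3 groups were collected on day 2.5 (d2.5) and day 5 (d5) of differentiation. A knockdown group without FGF2 was not analysed here, so the knockdown was measured only in the presence of FGF2. The labels give each day its own batch, so day and batch cannot be told apart. Nothing in the labels says that replicates came from separate cultures, and the p-values measure the spread between these samples.

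Cholesterol is built from acetyl-CoA through mevalonate, farnesyl diphosphate, squalene and lanosterol, and fatty acids are built from acetyl-CoA through malonyl-CoA and then lengthened and desaturated. SREBP proteins, encoded by Srebf1 and Srebf2, are transcription factors that are held in the endoplasmic reticulum by Insig proteins when sterols are plentiful and are released to the nucleus when sterols run low. SREBP-2 is best known for driving sterol genes and SREBP-1 for driving fatty acid genes, while LXR receptors respond to oxidized sterols by driving genes of cholesterol export. Growing cells need both products for membranes.

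Counts on genes ranged from 10377151 to 14698525 per library (median 12330911). The siRNA targets were lower in the knockdown on both days, with Yap1 at 129 ± 2.79 CPM (SD, n = 3) in Ctrl+FGF2 and 66.7 ± 2.45 CPM in Y/T dKD+FGF2 cells at d2.5, and 152 ± 5.95 and 70.4 ± 3.399 CPM at d5. Wwtr1 went from 221 ± 2.96 to 135 ± 5.97 CPM at d2.5 and had 215 ± 2.87 and 124 ± 3.24 CPM at d5 in the same groups, so the knockdown was partial. CPM here is the count scaled to library size, with TMM factors over all 18 libraries. Of 10 NC and mesenchyme markers 8 or 9 had a mean over 1 CPM in each group, and Sox10 had no counts in any library. Of 8 osteoblast markers 6 to 8 did. Of 8 adipocyte markers, 2 to 4 had a mean over 1 CPM, and their summed level was between 40.7 and 76.1 CPM in every library. Markers of other cells moved with the groups and days. The sum of 6 chondrocyte genes at d2.5 was between 569 and 798 CPM in Ctrl+vehicle, 59.9 and 63.0 CPM in Ctrl+FGF2 and 69.6 and 73.8 CPM with the knockdown, and between 199.9 and 375 CPM in all groups at d5. The sum of 5 smooth muscle genes was between 167 and 231, 22.7 and 23.7, and 13.7 and 15.3 CPM in the same order at d2.5, and between 2030 and 3067 CPM in all groups at d5. The 6 glial and neuronal genes summed to at most 28.8 CPM in any library. The part of these markers in the results was not tested. Among the adipocyte markers, Cidec had no counts, and Adipoq, Plin1 and Lep had means of at most 0.0634 CPM in any group. Others changed between the days. Of 4 tested, 2 were higher at d5 than at d2.5 in each group (edgeR's quasi-likelihood test, adjusted p under 0.05). Lower at d5 were 2 with vehicle, 1 with FGF2 alone and 2 with the knockdown. The highest log2 fold change among the 4 was 6.39, 10.4 and 7.24 in the same order. Bulk counts cannot tell fewer expressing cells from less RNA per cell.

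The summed level of the 21 sterol genes stepped down from group to group on both days. At d2.5 it was 3854 ± 136 CPM in Ctrl+vehicle, 3176 ± 52.4 CPM in Ctrl+FGF2 and 2812 ± 52.5 CPM in Y/T dKD+FGF2 cells. At d5 it was 2129 ± 144, 1215 ± 71.4 and 943 ± 20.8 CPM, the last being 24.5% of the first group's level. The 11 fatty acid genes summed to 7897 ± 176, 5976 ± 93.6 and 5781 ± 136 CPM at d2.5 and to 4516 ± 230, 2695 ± 6.83 and 2202 ± 30.8 CPM at d5. Scd1 and Scd2 made up most of that sum, and the other 9 genes fell from 2521 ± 80.6 CPM in Ctrl+vehicle cells at d2.5 to 766 ± 13.5 CPM in Y/T dKD+FGF2 cells at d5. Within both sums the libraries of neighbouring groups on a day did not overlap, apart from the fatty acid genes at d2.5, where Ctrl+FGF2 overlapped with the knockdown.

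**Figure D1:**
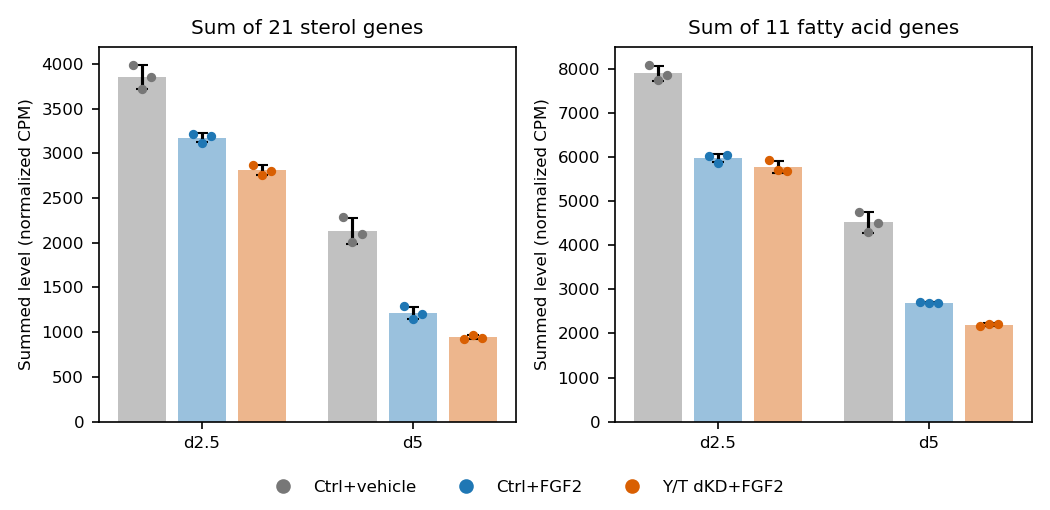
Summed level (normalized CPM) of the 21 sterol genes (left) and the 11 fatty acid genes (right) in the 3 groups on each day. Bars show the mean of 3 libraries, error bars the SD and points the libraries, and both sums are lowest in Y/T dKD+FGF2 cells at d5 (943 and 2202 CPM).

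Levels of different genes were compared only after division by the length of the gene's exons, merged over all its annotated transcripts. That length can exceed that of any single transcript, so the order of genes is approximate. In Ctrl+vehicle cells at d2.5, Scd2 (761 CPM per kb) and Scd1 (249.2 CPM per kb) stood highest, followed by Hmgcs1 (169.6 CPM per kb), Fads1 (121 CPM per kb) and Cyp51 (117 CPM per kb). Tm7sf2 (4.43 CPM per kb), Acss2 (3.17 CPM per kb) and Fdps (2.15 CPM per kb) stood lowest. In Y/T dKD+FGF2 cells at d5 Scd2 (208 CPM per kb) was still highest and Fdps (0.132 CPM per kb) lowest. Scd1, Tm7sf2 and Acss2 also kept their places, while Cyp51 went from place 5 to place 9. Ebp moved most in this order, from place 24 to place 3. Reads that map to several places were not counted, so the levels of genes with near-identical copies, such as Fdps and Acat2, are uncertain.

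**Figure D2:**
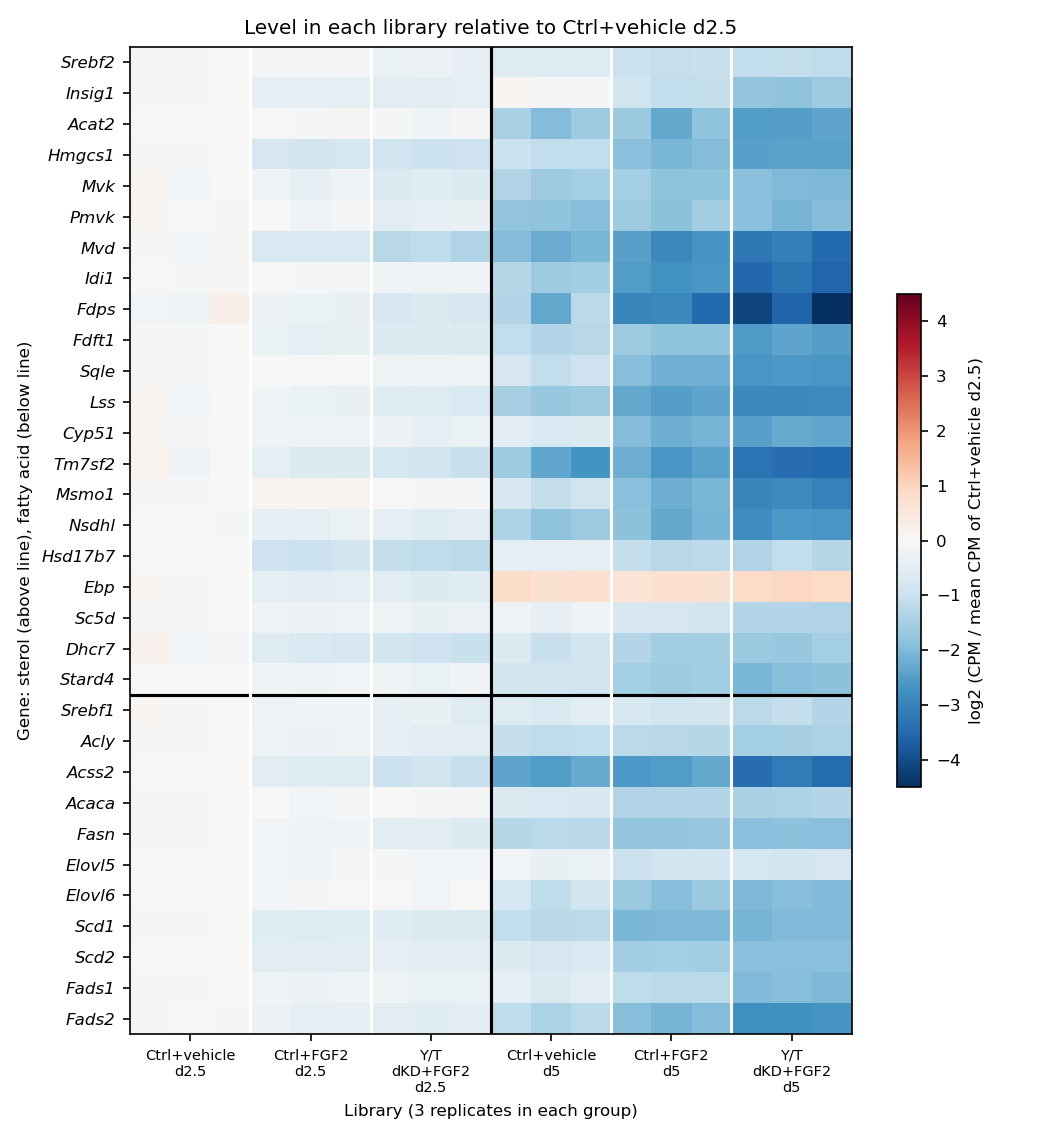
Level of each gene in each of the 18 libraries, as log2 of CPM over the mean CPM of Ctrl+vehicle cells at d2.5 (blue lower, red higher), with sterol genes above and fatty acid genes below the black line. Nearly all rows darken to blue from d2.5 to d5 and from Ctrl+vehicle to Y/T dKD+FGF2, while Ebp turns red at d5.

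The promoters were read for letters known from sterol regulation, in windows of 250 bases before to 50 bases after the RefSeq start (build GRCm38.p6), which were found for 25 of the 32 genes. Not matched were Fdps, Fdft1, Sqle, Stard4, Scd1, Scd2 and Fads1. The letters TCACNCCAC, a form of the sterol regulatory element bound by SREBP, were searched on both strands and occurred in 1 of the 25 genes, Hmgcs1, against 1.44% of the 27025 genes with a window. CCAAT, the letters bound by NF-Y, occurred in 21 of the 25 (84.0%) against 41.1% of all genes and 43.3% of genes with a mean of at least 10 counts. GGGCGG, a GC box bound by Sp1, occurred in 20 of the 25 (80.0%) against 38.2% and 70.9%. TCACGTGA, which SREBP-1 and other E-box proteins bind, occurred in none of the 25 and in 1.12% of all genes. These matches describe the windows, and letters outside them were not searched. The window of Hmgcs1 is shown because it alone, among the 25 genes with a window, held TCACNCCAC. Other forms of the regulatory element were not searched. It lies at chr13:119690101-119690400 on the plus strand, 5′ to 3′, and the capitals mark TCACCCCAC on the gene's strand, which begins 137 bases before the start.
Hmgcs1 promoter: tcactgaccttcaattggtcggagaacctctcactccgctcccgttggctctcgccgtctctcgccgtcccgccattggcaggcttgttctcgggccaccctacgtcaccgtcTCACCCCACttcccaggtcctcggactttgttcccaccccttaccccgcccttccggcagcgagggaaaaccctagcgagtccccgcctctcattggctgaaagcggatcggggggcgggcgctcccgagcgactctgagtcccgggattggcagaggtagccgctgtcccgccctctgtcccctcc

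FGF2 was followed by lower levels of most of the 32 genes on both days. At d2.5, 25 of the 32 were called lower and Msmo1 was called higher, where called means an adjusted p under 0.05 (edgeR's quasi-likelihood test with Benjamini-Hochberg adjustment over all 13677 genes tested). Of all genes tested, 34.1% were called lower and 33.5% higher. The median log2 fold change was −0.27 over the sterol genes and −0.23 over the fatty acid genes, against 0.00 over all genes. At d5, 26 of the 32 were called lower and none higher, where 23.7% of 13304 genes were called lower and 23.5% higher. There the medians were −0.65 for sterol and −0.65 for fatty acid genes, so that the middle gene kept 63.7% of its Ctrl+vehicle level.

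The knockdown in the presence of FGF2 took the sterol genes further down. At d2.5, 16 of the 21 sterol and 6 of the 11 fatty acid genes were called lower than in Ctrl+FGF2 cells, and none was called higher. The background of that comparison was 13.6% called lower and 10.8% called higher. The medians were small, at −0.20 for sterol and −0.08 for fatty acid genes. At d5, 16 sterol and 7 fatty acid genes were called lower, Ebp was called higher, and the medians were −0.53 and −0.24, with a background of 16.1% lower and 15.6% higher. Both comparisons use the same Ctrl+FGF2 libraries, so high or low values there push the effects of FGF2 and of the knockdown in opposite directions.

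Across both steps together, from Ctrl+vehicle to Y/T dKD+FGF2, 30 of the 32 genes were called lower at d2.5 and none higher, where 35.7% of all genes were called lower and 34.1% higher. The medians were −0.50 for sterol and −0.49 for fatty acid genes. At d5, 30 were called lower and Ebp higher, with a background of 21.1% and 20.7%. The medians then were −1.15 and −0.83. The call of Ebp was lost when any of 5 libraries was left out.

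**Figure D3:**
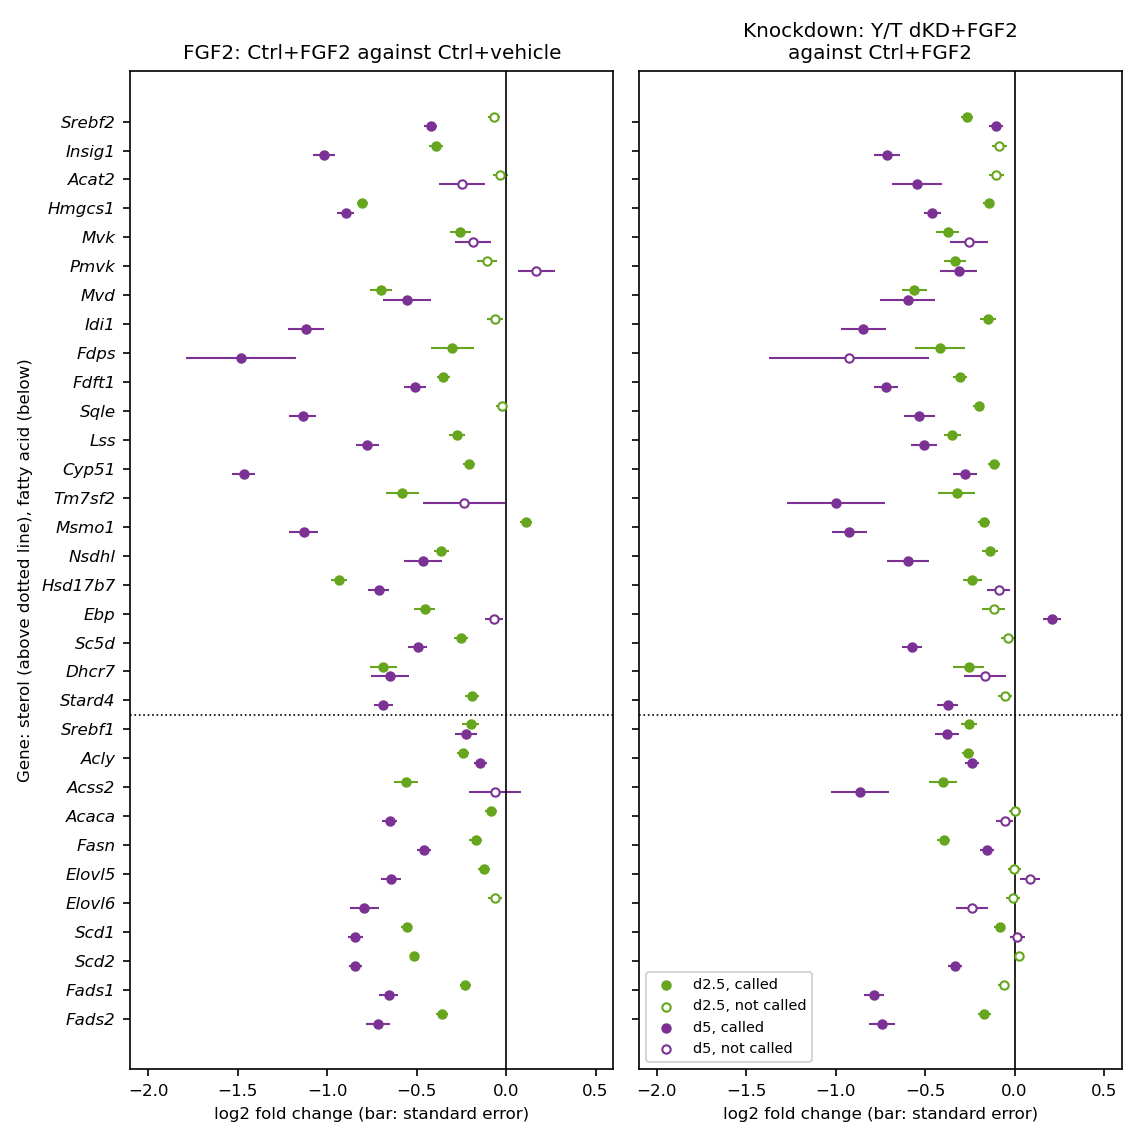
Log2 fold change of each gene for FGF2 (left) and for the knockdown in the presence of FGF2 (right) at d2.5 (green) and d5 (purple), with the standard error as a bar and open circles for genes not called. At d5 most sterol genes lie left of their d2.5 value on both sides, and 2 values are called higher, Msmo1 with FGF2 at d2.5 and Ebp with the knockdown at d5.

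Among the regulators, Srebf2 encodes SREBP-2. At d2.5 its level was 420.2, 390.3 and 408 CPM in the Ctrl+vehicle libraries, 393, 382 and 395 CPM in Ctrl+FGF2 and 329, 336 and 316 CPM in Y/T dKD+FGF2. At d5 it was 269, 273 and 272 CPM, then 206, 196 and 201 CPM, then 188, 192 and 182 CPM in the same order. The knockdown libraries were the lowest on each day, and the 2 other groups overlapped at d2.5 and not at d5. With FGF2 the log2 fold change was −0.07 (standard error 0.03, adjusted p = 0.066) at d2.5 and −0.42 (0.04, adjusted p = 5.2e-08) at d5. The knockdown gave −0.26 (0.03, adjusted p = 7.8e-07) at d2.5 and −0.10 (0.04, adjusted p = 0.04) at d5, and the latter call was lost when any of 5 libraries was left out.

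Insig1, which retains SREBP in the endoplasmic reticulum and is itself a target of SREBP, had 126, 118 and 122 CPM in Ctrl+vehicle, 94.7, 93.9 and 92.3 CPM in Ctrl+FGF2 and 87.9, 86.7 and 91.7 CPM in Y/T dKD+FGF2 cells at d2.5. At d5 it had 132, 117 and 119 CPM, then 65.1, 56.9 and 57.8 CPM, then 35.3, 35.1 and 40.0 CPM. No 2 groups of a day overlapped, and Insig1 was the 1 gene whose Ctrl+vehicle level was not called different between the days. Its log2 fold change with FGF2 was −0.39 (standard error 0.04, adjusted p = 3.4e-10) at d2.5 and −1.02 (0.06, adjusted p = 5.8e-10) at d5. With the knockdown it was −0.09 (0.04, adjusted p = 0.13) at d2.5 and −0.71 (0.07, adjusted p = 5.1e-07) at d5. The knockdown effect differed between the days by −0.63 (0.08, adjusted p = 1.4e-06).

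Srebf1 encodes SREBP-1 and had 174, 154 and 167 CPM in Ctrl+vehicle, 141, 147 and 147 CPM in Ctrl+FGF2 and 125, 130.0 and 112 CPM in Y/T dKD+FGF2 cells at d2.5. On d5 the values were 110.0, 102 and 118 CPM, then 99.0, 87.9 and 92.9 CPM, then 71.0, 78.4 and 66.04 CPM. The groups stood in the same order on both days without overlap. Its log2 fold changes were modest, at −0.20 (standard error 0.05, adjusted p = 0.00028) and −0.22 (0.06, adjusted p = 0.0068) for FGF2 and −0.25 (0.05, adjusted p = 0.00016) and −0.38 (0.07, adjusted p = 0.00023) for the knockdown at d2.5 and d5. The call with FGF2 at d5 was lost without Ctrl+vehicle replicate 3 (adjusted p = 0.053). The effects of Srebf1 were not called different between the days (adjusted p = 0.64 for FGF2 and 0.35 for the knockdown).

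The mevalonate steps hold Acat2 (acetoacetyl-CoA thiolase), Hmgcs1 (HMG-CoA synthase), Mvk and Pmvk (kinases of mevalonate), Mvd (the decarboxylase), Idi1 (isopentenyl diphosphate isomerase) and Fdps (farnesyl diphosphate synthase). FGF2 lowered 4 of these 7 on each day, and the knockdown lowered 6 at d2.5 and 5 at d5. Of all genes, FGF2 lowered 34.1% at d2.5 and 23.7% at d5, and the knockdown 13.6% and 16.1%. Some of these calls were lost under alternatives. They were those of Fdps at d2.5, and with the knockdown those of Idi1 at d2.5 and Pmvk at d5. Hmgcs1 responded early to FGF2, from 779 ± 23.7 to 449 ± 6.22 CPM at d2.5 (log2 fold change −0.80, standard error 0.03, adjusted p = 1.8e-20) and from 375 ± 22.4 to 199.8 ± 10.5 CPM at d5 (−0.90, 0.05, adjusted p = 9.6e-11). Mvd was called lower with FGF2 and with the knockdown on both days, and at d2.5 fell from 51.1 ± 3.47 CPM in Ctrl+vehicle to 31.7 ± 0.0578 CPM in Ctrl+FGF2 and 21.6 ± 1.75 CPM in Y/T dKD+FGF2 cells. Pmvk was the exception at d5, with 14.3 ± 0.785 CPM in Ctrl+vehicle and 16.01 ± 1.75 CPM in Ctrl+FGF2 cells (log2 fold change 0.17, adjusted p = 0.19). Mvk was not called at d5 with FGF2 (−0.18, adjusted p = 0.15) or with the knockdown (−0.25, adjusted p = 0.08).

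Idi1 changed little at d2.5 and strongly at d5. At d2.5 it had 91.6, 85.2 and 92.1 CPM in Ctrl+vehicle, 90.5, 85.2 and 83.9 CPM in Ctrl+FGF2 and 79.1, 75.8 and 80.5 CPM in Y/T dKD+FGF2 cells. The d5 libraries had 37.1, 29.1 and 30.5 CPM, then 15.9, 13.7 and 14.5 CPM, then 7.73, 9.13 and 7.63 CPM. Only the first 2 groups at d2.5 overlapped. FGF2 gave −0.06 (standard error 0.04, adjusted p = 0.22) at d2.5 and −1.12 (0.10, adjusted p = 9.1e-08) at d5, and the knockdown −0.15 (0.05, adjusted p = 0.014) and −0.84 (0.13, adjusted p = 5.3e-05). The knockdown call at d2.5 was lost without Ctrl+FGF2 replicate 1 (adjusted p = 0.11) or Y/T dKD+FGF2 replicate 2 (0.057), with DESeq2 (0.056) and with all 18 libraries in 1 fit (0.069).

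Fdps was counted so rarely that its values carry wide errors. It had 8.28, 7.93 and 10.9 CPM in Ctrl+vehicle, 7.46, 7.42 and 7.15 CPM in Ctrl+FGF2 and 5.38, 5.75 and 5.44 CPM in Y/T dKD+FGF2 cells at d2.5. At d5 it had 3.62, 1.83 and 3.86 CPM, then 1.19, 1.22 and 0.808 CPM, then 0.51, 0.747 and 0.407 CPM, from 4 to 43 counts in a library. Its groups did not overlap on either day. FGF2 gave −1.48 at d5 (standard error 0.31, adjusted p = 0.00066), while the knockdown gave −0.93 (0.45, adjusted p = 0.13).

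From farnesyl diphosphate, Fdft1 (squalene synthase), Sqle (squalene epoxidase) and Lss (lanosterol synthase) lead to lanosterol. The knockdown lowered all 3 on both days (all genes 13.6% at d2.5 and 16.1% at d5), and FGF2 lowered all 3 at d5 (23.7%). Sqle, a step that limits the rate of sterol synthesis, had 392, 366 and 381 CPM in Ctrl+vehicle, 379, 370.5 and 379 CPM in Ctrl+FGF2 and 334, 321 and 332 CPM in Y/T dKD+FGF2 cells at d2.5. On d5 the values were 225, 176 and 197 CPM, then 101, 84.5 and 84.0 CPM, then 62.5, 63.2 and 61.1 CPM. The Ctrl+vehicle and Ctrl+FGF2 libraries overlapped at d2.5, and at d5 no groups did. FGF2 gave −0.03 (standard error 0.03, adjusted p = 0.49) at d2.5 and −1.14 (0.08, adjusted p = 2.5e-09) at d5, and the knockdown −0.20 (0.03, adjusted p = 2.2e-05) and −0.53 (0.09, adjusted p = 0.00011). Fdft1 was lower with the knockdown by −0.72 (0.07, adjusted p = 2e-07) at d5, when it had 76.9 ± 5.16 CPM in Ctrl+FGF2 and 46.8 ± 2.89 CPM in Y/T dKD+FGF2 cells. Lss had 36.3 ± 2.24 and 25.6 ± 0.364 CPM in the same groups (−0.51, 0.07, adjusted p = 3.7e-05).

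After lanosterol, 8 genes carry the chain to cholesterol. Cyp51, the lanosterol demethylase, had 545, 497 and 511 CPM in Ctrl+vehicle, 453, 449 and 454 CPM in Ctrl+FGF2 and 432, 403 and 426 CPM in Y/T dKD+FGF2 cells at d2.5. The d5 libraries had 374, 319 and 332 CPM, then 133, 112 and 123 CPM, then 95.3, 107 and 102 CPM. No groups overlapped on either day. The drop with FGF2 at d5 was large beside the spread of the libraries, at −1.47 (standard error 0.06, adjusted p = 9.6e-12), and at d2.5 it was −0.21 (0.03, adjusted p = 2.2e-06). The knockdown gave −0.12 (0.03, adjusted p = 0.011) at d2.5 and −0.28 (0.07, adjusted p = 0.0047) at d5. The call at d2.5 was lost without Y/T dKD+FGF2 replicate 2 (adjusted p = 0.056) and with all 18 libraries in 1 fit (adjusted p = 0.14).

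Msmo1, a methylsterol oxidase, was the 1 gene called higher with FGF2. It had 274, 259 and 268 CPM in Ctrl+vehicle, 290.2, 288 and 294 CPM in Ctrl+FGF2 and 264, 259 and 258 CPM in Y/T dKD+FGF2 cells at d2.5. At d5 it had 163, 126 and 144 CPM, then 72.7, 58.7 and 64.4 CPM, then 34.0, 36.6 and 32.7 CPM. The Ctrl+FGF2 libraries were highest at d2.5, where the 2 other groups overlapped, and at d5 no groups did. FGF2 gave 0.11 (standard error 0.03, adjusted p = 0.0029) at d2.5 and −1.13 (0.08, adjusted p = 6.4e-09) at d5, and the call at d2.5 was lost with all 18 libraries in 1 fit (adjusted p = 0.052). The knockdown gave −0.17 (0.03, adjusted p = 0.00023) and −0.92 (0.10, adjusted p = 1e-06).

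Ebp, the sterol isomerase, went against the other genes at d5, and was singled out after its values were seen. It had 49.9, 43.7 and 47.4 CPM in Ctrl+vehicle, 35.9, 33.0 and 34.6 CPM in Ctrl+FGF2 and 32.8, 30.9 and 32.3 CPM in Y/T dKD+FGF2 cells at d2.5. On d5 the values were 83.6, 76.1 and 78.5 CPM, then 71.6, 78.2 and 75.2 CPM, then 85.7, 88.6 and 86.9 CPM, where the knockdown libraries were highest and the 2 others overlapped. FGF2 gave −0.46 (standard error 0.06, adjusted p = 3.6e-08) at d2.5 and −0.07 (0.05, adjusted p = 0.29) at d5, and the knockdown −0.12 (0.06, adjusted p = 0.19) and 0.21 (0.05, adjusted p = 0.0033).

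Of the remaining genes after lanosterol, Hsd17b7 (a sterone reductase) and Dhcr7 (the last reductase of the chain) were called lower with FGF2 on both days, as were Nsdhl (a sterol dehydrogenase) and Sc5d (a sterol desaturase). Nsdhl changed by −0.36 (adjusted p = 6.2e-09) at d2.5 and −0.46 (adjusted p = 0.0015) at d5, and Sc5d by −0.25 (adjusted p = 1.7e-06) and −0.49 (adjusted p = 4.3e-07). Hsd17b7 went from 89.6 ± 1.65 to 47.2 ± 1.76 CPM at d2.5 (log2 fold change −0.93, adjusted p = 1.6e-17) and from 66.2 ± 0.570 to 40.1 ± 2.08 CPM at d5 (−0.71, adjusted p = 3.2e-08). Dhcr7 changed by −0.69 (adjusted p = 2.6e-09) and −0.65 (adjusted p = 7.9e-05). With the knockdown at d5, Hsd17b7 and Dhcr7 were not called, and Tm7sf2 (a sterol reductase), Nsdhl and Sc5d were called lower. Tm7sf2 fell by 0.997 there (log2, standard error 0.27, adjusted p = 0.0089), from 3.69 ± 0.526 to 1.84 ± 0.113 CPM. Nsdhl fell by 0.60 (0.12, adjusted p = 0.00081) and Sc5d by 0.57 (0.06, adjusted p = 3.7e-07). Stard4, a carrier of cholesterol between membranes, was lower with FGF2 on both days and with the knockdown only at d5 (−0.37, 0.06, adjusted p = 9.5e-05), with −0.05 (adjusted p = 0.37) at d2.5.

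**Figure D4:**
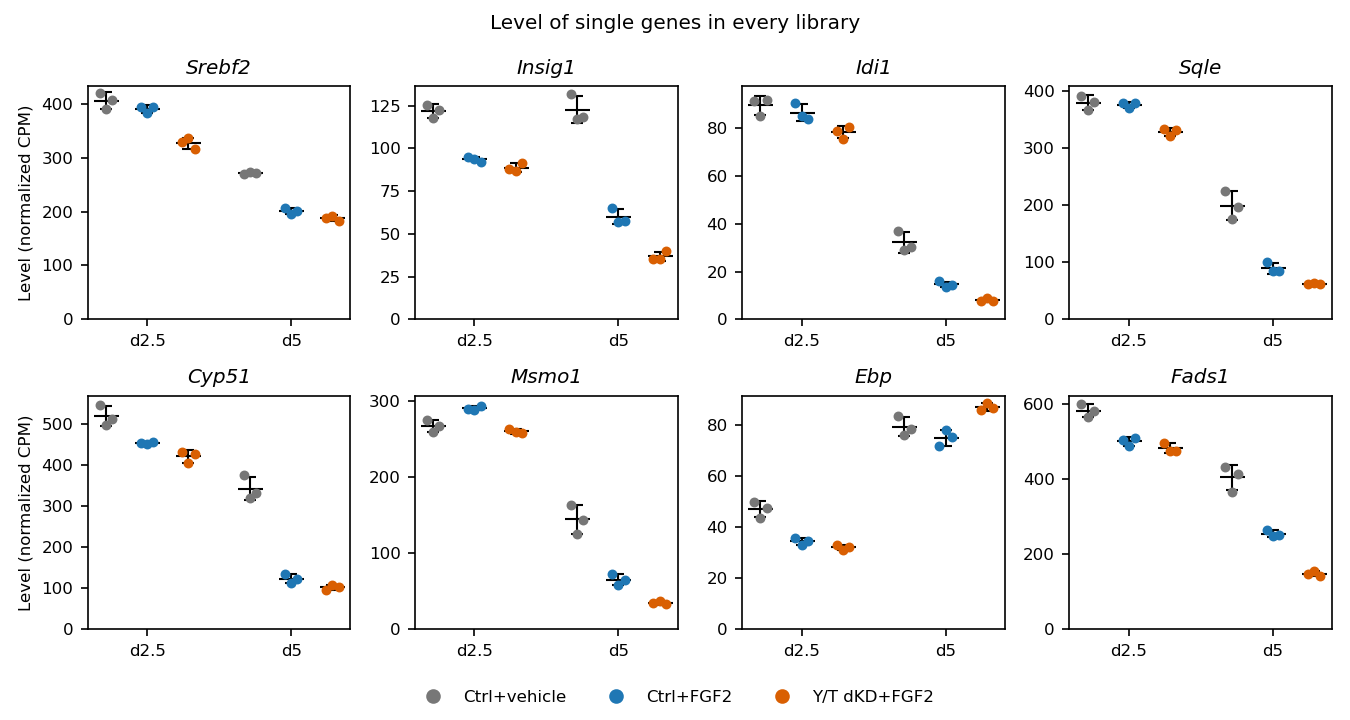
Level (normalized CPM) of 8 genes in every library of the 3 groups on each day. Points are libraries and black bars the mean and SD of 3. Idi1, Sqle and Msmo1 differ little between groups at d2.5 and step down from Ctrl+vehicle through Ctrl+FGF2 to Y/T dKD+FGF2 at d5, and Ebp is highest in Y/T dKD+FGF2 cells at d5.

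The fatty acid genes begin with the supply of acetyl-CoA. Acly, which makes it from citrate, had 431 ± 20.4, 367 ± 9.35 and 309 ± 6.88 CPM from Ctrl+vehicle through Ctrl+FGF2 to the knockdown at d2.5 and 202 ± 4.44, 181 ± 3.85 and 154 ± 4.92 CPM at d5, and was called lower in each step. Acss2, which makes it from acetate, fell with the knockdown by 0.40 (log2, standard error 0.08, adjusted p = 0.00024) at d2.5 and by 0.87 (0.16, adjusted p = 0.00048) at d5. With FGF2 it fell by 0.56 at d2.5, and at d5 it was at 6.15 ± 0.534 and 5.83 ± 0.555 CPM (−0.06, adjusted p = 0.75).

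Acaca, the carboxylase that makes malonyl-CoA, and Fasn, the fatty acid synthase, were both called lower with FGF2 on both days, and Fasn with the knockdown as well. With FGF2 Fasn changed by −0.17 (standard error 0.04, adjusted p = 0.00013) at d2.5 and by −0.46 (0.04, adjusted p = 3.8e-08) at d5. Acaca went down with FGF2 at d5, from 140.0 ± 4.87 to 88.3 ± 0.350 CPM (log2 fold change −0.65, standard error 0.04, adjusted p = 2.2e-09), and was at 85.4 ± 3.98 CPM with the knockdown (−0.06, adjusted p = 0.39). Its call with FGF2 at d2.5 (−0.08, adjusted p = 0.036) was lost when any of 6 libraries was left out. Fasn was lower with the knockdown at d2.5, from 399.5 ± 12.6 to 305 ± 13.9 CPM (−0.40, 0.04, adjusted p = 2.4e-09), more than at d5, where it was at 135 ± 2.92 and 122 ± 2.26 CPM (−0.15, 0.04, adjusted p = 0.0062). The difference of its knockdown effect between the days was 0.24 (0.06, adjusted p = 0.0039).

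The elongases Elovl5, which lengthens polyunsaturated fatty acids, and Elovl6, which lengthens saturated ones, were lower with FGF2 at d5, by −0.64 (standard error 0.05, adjusted p = 3.9e-08) and −0.79 (0.08, adjusted p = 4.5e-07). With the knockdown neither was called on either day, though Elovl6 was called lower at d5 under 6 of the other settings (adjusted p between 0.0029 and 0.048) and without any of 3 libraries. Elovl5 was at 87.0 ± 3.88 CPM in Ctrl+FGF2 and 93.0 ± 3.10 CPM in Y/T dKD+FGF2 cells at d5 (0.09, adjusted p = 0.26), and Elovl6 at 44.8 ± 4.24 and 37.9 ± 1.45 CPM (−0.24, adjusted p = 0.051).

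Of the desaturases, Scd1 and Scd2, which place the first double bond in saturated fatty acids, fell with FGF2 by 0.56 and 0.51 on the log2 scale at d2.5 and by 0.84 and 0.84 at d5 (adjusted p between 4.6e-11 and 2.8e-17). With the knockdown at d5 Scd1 was at 297 ± 2.22 CPM in Ctrl+FGF2 and 302 ± 13.3 CPM in Y/T dKD+FGF2 cells (0.02, adjusted p = 0.82), while Scd2 went from 1424 ± 14.1 to 1134 ± 5.47 CPM (−0.33, 0.04, adjusted p = 2.5e-06). Fads1 and Fads2, which desaturate polyunsaturated fatty acids, fell more. Fads1 went from 255 ± 9.53 to 148 ± 6.47 CPM (−0.79, 0.06, adjusted p = 7.7e-09) and Fads2 from 82.8 ± 5.40 to 49.8 ± 1.57 CPM (−0.74, 0.07, adjusted p = 4.6e-07). At d2.5 the knockdown had changed Fads1 by −0.06 (adjusted p = 0.15) and Fads2 by −0.17 (adjusted p = 0.00089). The differences between genes of a pair were not tested.

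Between the days the genes fell in every group. In Ctrl+vehicle cells 30 of the 32 were called lower at d5 than at d2.5 and Ebp higher, in Ctrl+FGF2 cells 31 lower and Ebp higher, and with the knockdown 30 lower and Ebp higher. Of 14198 genes tested, 33.2% were called lower and 33.1% higher in Ctrl+vehicle, 38.8% and 41.2% in Ctrl+FGF2 and 38.1% and 40.3% under the knockdown. The sterol medians were −1.06, −1.58 and −1.83 and the fatty acid medians −0.94, −1.27 and −1.40 in the same order. Msmo1 was at 267 ± 7.89 CPM in Ctrl+vehicle cells at d2.5 and at 34.4 ± 2.01 CPM in Y/T dKD+FGF2 cells at d5. Ebp rose by 0.76 (standard error 0.05), 1.12 (0.06) and 1.44 (0.06) on the log2 scale (adjusted p between 1.6e-13 and 4.9e-20).

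A model of all 18 libraries tested whether the effects differed between days. The FGF2 effect was called different for 22 of the 32 genes, with 19 differences negative (more lowering at d5) and 3 positive, against 29.1% and 31.8% of all genes. The negative differences were largest for Cyp51 (−1.28, standard error 0.07, adjusted p = 4.8e-15), Msmo1 (−1.27, 0.09, adjusted p = 2.1e-13), Fdps (−1.21, 0.32, adjusted p = 0.0019), Sqle (−1.14, 0.08, adjusted p = 1e-12) and Idi1 (−1.08, 0.10, adjusted p = 3.1e-10). The positive ones were Acss2 (0.47, 0.15, adjusted p = 0.0061), Ebp (0.37, 0.08, adjusted p = 0.00014) and Hsd17b7 (0.20, 0.08, adjusted p = 0.025). The knockdown effect was called different for 16 genes, with 13 differences negative and 3 positive, against 9.35% and 11.6% of all genes. Msmo1 (−0.76, 0.10, adjusted p = 1.5e-06), Fads1 (−0.73, 0.07, adjusted p = 2.3e-09) and Idi1 (−0.70, 0.13, adjusted p = 0.00021) led here, and Ebp (0.32), Fasn (0.24) and Srebf2 (0.16) went the other way.

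The wider pathway was read from 52 further genes, of which 47 were tested. FGF2 lowered 30 and raised 10 of them at d2.5 (all genes 34.1% lower and 33.5% higher), and lowered 20 and raised 12 at d5 (23.7% and 23.5%). The knockdown lowered 16 and raised 5 at d2.5 (13.6% and 10.8%), and lowered 15 and raised 13 at d5 (16.1% and 15.6%). Genes were thus called in both directions in each comparison, and the medians were −0.25 and −0.11 for FGF2 and −0.08 and −0.03 for the knockdown.

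Of 9 further sterol genes, 8 were called lower and 0 higher with FGF2 at d5, and 6 lower and 2 higher at d2.5. Of all genes, 23.7% were called lower and 23.5% higher at d5, and 34.1% and 33.5% at d2.5. The knockdown lowered 3 and raised 0 at d2.5 (all genes 13.6% and 10.8%), and lowered 4 and raised 2 at d5 (16.1% and 15.6%). Lbr, a sterol reductase of the nuclear envelope, rose with FGF2 at d2.5 by 0.87 (log2, adjusted p = 1.1e-17).

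Genes of SREBP processing and LXR genes were read as separate lists, against the same shares of all genes. Of the 8 further genes of SREBP processing and Insig turnover, 3 were called higher and 4 lower with FGF2 at d2.5, 3 higher and 2 lower at d5, shares near those of all genes (33.5% and 34.1% at d2.5, 23.5% and 23.7% at d5), and Erlin1 rose most at d2.5 (0.89, adjusted p = 6.6e-15). The knockdown raised 1 and lowered 2 of the 8 at d2.5 (all genes 10.8% and 13.6%), where Rnf139 rose by 0.24 (adjusted p = 0.00033). At d5 the knockdown raised 2 and lowered 3 of the 8 (all genes 15.6% and 16.1%). Of 6 LXR genes tested, FGF2 lowered 5 and raised 0 at d2.5, and raised 5 and lowered 0 at d5. The knockdown raised 2 and lowered 2 of these 6 on each day. Mylip, a ubiquitin ligase induced by LXR, went from 101 ± 4.90 to 36.1 ± 2.38 CPM with FGF2 at d2.5 (−1.50, adjusted p = 1.2e-20), and the knockdown raised it on both days (0.32, adjusted p = 0.00039, and 0.47, adjusted p = 9e-08). Abca1, a cholesterol exporter, rose with the knockdown at d2.5 by 0.31 (adjusted p = 5e-06). Abcg1, another exporter, fell with the knockdown at d5 from 7.13 ± 0.547 to 3.42 ± 0.412 CPM (−1.07, adjusted p = 2.2e-05). Apoe, a carrier of cholesterol, was at 1.15 and 1.87 CPM in Ctrl+vehicle and Ctrl+FGF2 cells at d5 (0.73, adjusted p = 0.042).

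Of 24 further fatty acid genes tested, FGF2 lowered 15 and raised 5 at d2.5 and lowered 10 and raised 4 at d5, and the knockdown lowered 9 and raised 2 at d2.5 and lowered 6 and raised 7 at d5. For all genes the shares called lower and higher were 34.1% and 33.5%, 23.7% and 23.5%, 13.6% and 10.8%, and 16.1% and 15.6% in the same order. Acsl3, which activates fatty acids, went from 189.6 ± 3.51 to 78.0 ± 6.79 CPM with FGF2 at d5 (−1.27, adjusted p = 3.8e-12) and rose to 105 ± 2.98 CPM with the knockdown (0.42, adjusted p = 9.2e-06). Me1, which supplies NADPH, fell by 0.99 with FGF2 at d5 (adjusted p = 2.4e-11), while Lpin1, a phosphatase of lipid synthesis, rose by 0.61 (adjusted p = 1.9e-07) and Hacd2, of the elongation cycle, by 0.63 (adjusted p = 9.5e-08). Acsl1 (−0.47, adjusted p = 0.00023) and the citrate carrier Slc25a1 (−0.37, adjusted p = 2.1e-07) fell with the knockdown at d2.5. Elovl4 and Scd4 were called lower with FGF2 at d2.5 (−2.04, adjusted p = 6.3e-07, and −1.23, adjusted p = 0.0018) at levels of at most 2.29 CPM, and Elovl4 was called higher with the knockdown at d5 (0.71, adjusted p = 0.032).

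Genes of cell division moved with the sterol and fatty acid genes in some comparisons and against them in others. The summed level of 8 proliferation genes was between 791 and 903 CPM in Ctrl+vehicle, 1836 and 1876 CPM in Ctrl+FGF2 and 2011 and 2104 CPM in Y/T dKD+FGF2 cells at d2.5. At d5 it was between 409 and 663, 159.7 and 262, and 321 and 350.1 CPM. With FGF2 all 8 were called higher at d2.5 and lower at d5, and the knockdown raised 5 at d2.5 and all 8 at d5. Of all genes, 33.5% were called higher and 34.1% lower with FGF2 at d2.5, and 23.5% and 23.7% at d5. For the knockdown these shares were 10.8% and 13.6% at d2.5 and 15.6% and 16.1% at d5. The summed level of 8 osteoblast markers also differed, with 17149 to 17487 CPM in Ctrl+vehicle, 9589 to 9837 CPM in Ctrl+FGF2 and 11665 to 12191 CPM in Y/T dKD+FGF2 cells at d2.5 and 32286 to 34504, 17813 to 19199 and 24485 to 26158 CPM at d5. Single markers went both ways behind that sum. With FGF2, 2 of 7 tested were called higher and 5 lower at d2.5, and 4 of 8 higher and 4 lower at d5. The knockdown raised 4 and lowered 1 at d2.5, and raised all 8 at d5. The part of either gene set in the lower sterol and fatty acid levels was not tested.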

How the data were processed

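Bulk RNA-seq of 18 O9-1 libraries was used. The authors deposited raw counts per gene for each library, without normalization, as unstranded counts and counts of either strand. The submitters' processing notes name FastQC, STAR, Picard and featureCounts and the build mm10. The reverse strand held 96.0% to 96.6% of stranded counts and was used. Entries that name no gene (27.0% to 34.4% of a library) stayed out of totals and tests. Gene names and positions came from GENCODE M21 on GRCm38 by identifier without version, which named 55154 of 55335.

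The quasi-likelihood test of edgeR 4.0.16 (R 4.3.3; TMM factors; filterByExpr) was run in 1 fit of 9 libraries per day, and in a fit of all 18 for comparisons between days. Benjamini-Hochberg adjustment covered all genes tested, with a threshold of 0.05. A standard error was taken as the size of the log2 fold change over the root of the F statistic. The fits were checked on simulated counts.

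The rule for the 32 genes names symbols and uses no measured value, but the rule, the other lists and the tests were chosen with earlier results of these data known. The genes given in every library are the regulators and those called with a log2 fold change of at least 1 in either direction for FGF2 or the knockdown, plus Ebp. Of the wider pathway, the 3 largest called rises and falls in each of these comparisons are named, apart from items that are not reported here.

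Alternatives were RLE and upper-quartile factors, DESeq2 1.42.0, no filter, at least 10 counts in every library, a replicate block, unstranded counts, only the 2 groups compared, all 18 libraries in 1 fit and leaving out each library. Promoter windows came from RefSeq (GRCm38.p6).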

Additional observations from a re-analysis of the deposited data

Results flagged for a closer look

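The results set apart here are those in which an effect differed between d5 and d2.5 by the test of the difference itself (edgeR's quasi-likelihood test on all 18 libraries, Benjamini-Hochberg adjusted p under 0.05). Each value is the log2 fold change at d5 minus that at d2.5 within that fit. It can differ slightly from the gap between the fold changes given above, which came from a fit per day. Because each day is a batch of its own, a difference between days and one between batches cannot be told apart.

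For FGF2 the difference was negative for Cyp51 (−1.28), Msmo1 (−1.27), Fdps (−1.21), Sqle (−1.14), Idi1 (−1.08), Elovl6 (−0.75), Insig1 (−0.65), Acaca (−0.59), Elovl5 (−0.54), Lss (−0.52), Stard4 (−0.52), Fads1 (−0.45), Fads2 (−0.38), Srebf2 (−0.38), Scd2 (−0.35), Fasn (−0.31), Scd1 (−0.31), Sc5d (−0.27) and Fdft1 (−0.18). It was positive for Acss2 (0.47), Ebp (0.37) and Hsd17b7 (0.20). In these 3 the lowering was greater at d2.5.

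For the knockdown the difference was negative for Msmo1 (−0.76), Fads1 (−0.73), Idi1 (−0.70), Insig1 (−0.63), Fads2 (−0.57), Sc5d (−0.54), Nsdhl (−0.46), Acat2 (−0.44), Fdft1 (−0.42), Scd2 (−0.36), Sqle (−0.33), Stard4 (−0.33) and Hmgcs1 (−0.32). It was positive for Ebp (0.32), Fasn (0.24) and Srebf2 (0.16). Ebp was not called with the knockdown at d2.5 and was called higher at d5, while Srebf2 and Fasn were lowered more at d2.5.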

How the results depend on the processing

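Over the 11 comparisons, 7447 values of single genes were recomputed under the alternatives. Of these 7274 kept their direction and their side of the threshold or were not called either way, 114 were no longer called, 59 were newly called and 0 of the called values changed sign. Counts of genes called stayed within 1.5 times the reported count throughout. The widest move was the knockdown at d2.5, 22 genes against 15 with all 18 libraries in 1 fit and 16 with DESeq2. Under the replicate block the counts were 26 and 22 at d2.5 and 27 and 26 at d5 for FGF2 and the knockdown, where Acat2 (FGF2, adjusted p = 0.026) and Elovl6 and Mvk (knockdown, adjusted p = 0.023 and 0.039) were newly called at d5. Correlations of same-numbered libraries ran from −0.0820 to 0.0424 at d2.5 and from −0.0629 to 0.157 at d5. Between Ctrl+vehicle and Ctrl+FGF2 at d5 they were 0.145, 0.157 and 0.0273 and each library correlated best with its own number, a hint from the data and not the design. Not every pair passed 0.1 there and no pair with the knockdown did, so the numbers were not taken to pair the samples.

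Medians that moved by more than the spread of replicates were the fatty acid median from d2.5 to d5 in Ctrl+vehicle cells with upper-quartile factors (−1.04 against −0.94) and the sterol median from d2.5 to d5 in Y/T dKD+FGF2 cells with at least 10 counts in every library (−1.79 against −1.83), a filter that leaves out Fdps. Leaving out 1 library at a time gave ranges of −0.32 to −0.22 for the fatty acid median with the knockdown at d5, −1.02 to −0.84 and −1.31 to −1.26 for the fatty acid medians between days in Ctrl+vehicle and Ctrl+FGF2 cells, −1.88 to −1.79 for the sterol median between days in Y/T dKD+FGF2 cells and −0.19 to −0.081 for the fatty acid median of the difference of the knockdown effect. Without Ctrl+vehicle d5 replicate 1 the sterol median of the difference of the FGF2 effect was −0.14 against −0.24, and the fatty acid median of the difference of the knockdown effect went from −0.13 to −0.081 without Ctrl+FGF2 d5 replicate 1 and to −0.19 without Y/T dKD+FGF2 d5 replicate 2. The causes were not tested.

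Calls lost when 1 library was left out were those of Acaca and Fdps (FGF2, d2.5), Srebf1 (FGF2, d5, without Ctrl+vehicle replicate 3, adjusted p = 0.053), Cyp51, Dhcr7, Fdps, Idi1, Nsdhl, Scd1 and Tm7sf2 (knockdown, d2.5), Pmvk and Srebf2 (knockdown, d5), Acaca and Acat2 (Y/T dKD+FGF2 against Ctrl+vehicle, d2.5), Ebp (the same, d5), Fdft1 and Hsd17b7 (difference of the FGF2 effect) and Acat2 and Srebf2 (difference of the knockdown effect), with adjusted p between 0.05 and 0.29. With 4 to 15 counts in each FGF2-treated library at d5, depth limits what can be said of Fdps.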
